A study of Homo sapiens and Mus musculus with 20 samples.

Results

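H3K27ac regions of ARP1, a human multiple myeloma cell line, were compared between a line labelled KDM6A wild type (WT) and a line labelled KDM6A knock out (KO). The region lists of these libraries were taken by their titles, entries with equal coordinates were merged, and chromosomes 1 to 22 and X were kept. This gave 69127 WT and 76242 KO regions, together 145369 of the 1464415 regions in all 20 lists of the series. The series is a chromatin immunoprecipitation study of KDM6A in multiple myeloma cells and mouse fibroblasts, with antibodies against KDM6A, an HA tag and 3 histone marks. The labels name no treatment and no way in which KDM6A was disrupted. A line labelled KDM6A JmjD-dead, with H1146E in its title, was the remaining H3K27ac library of ARP1. It is set beside WT and KO for named genes and the distal share of the best ranks. HA regions are those of an HA-tagged ARP1 line, itself labelled KDM6A knock out, that are absent from the untagged HA list. The authors' filtering left 30.8 M fragments in WT and 25.6 M in KO, so the longer list came from the smaller library. Each genotype had 1 library. No difference below therefore has a replicate check or a test, and the 95% intervals (exact Clopper-Pearson) cover counting error only.

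H3K27ac is an acetylation of histone H3 found at active promoters and at active enhancers, which often lie far from the genes they act on. KDM6A, also called UTX, removes methyl groups from the same lysine of H3. It is a subunit of the complexes that hold KMT2C or KMT2D, the enzymes that place H3K4me1 at enhancers, and it is recurrently inactivated in multiple myeloma.

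The identity of the line was checked first. The samples are labelled multiple myeloma, a tumour of plasma cells, and all 20 plasma cell genes examined held H3K27ac within 10 kb of the gene body in both lists. Over all 19970 genes 14838 did in WT and 15278 in KO, and of 14 markers each of T and NK, myeloid and erythroid, and epithelial and stromal cells 8, 9 and 8 did in either list. The plasma cell genes included PRDM1 (38547 bp covered in WT and 37578 bp in KO), JCHAIN (27754 and 29920 bp), SDC1 (26293 and 26739 bp), IRF4 (18584 and 20699 bp) and XBP1 (15969 and 16023 bp). At KDM6A itself the covered length was 9699 bp in WT and 11745 bp in KO, and the best region at the gene ranked 6946 and 6926. The lists hold no reads, so the state of the KDM6A coding sequence is not seen in them.

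Few gene starts held H3K27ac in 1 list only. Changes of strength at starts marked in both lists are not counted here. Of 15811 promoter windows, the 250 bases before to 50 bases after a gene start in RefSeq, 8556 (54.1%) held a region in both lists and 6699 in neither. In WT alone 167 windows (1.06%) held one, and in KO alone 389 (2.46%). At 73 and 196 of these the region itself had no counterpart in the other list. The 3 best ranked of each kind are printed here, because they show which gene starts carried H3K27ac in only 1 of the WT and KO lists. In JmjD-dead cells the windows of JCAD, KATNAL1 and PTPN14 also held a region, and those of LILRA2, ARHGAP15 and GPR55 did not. Rank is the place in the list when regions are ordered by the authors' −log10 q-value, 1 being the strongest. Each sequence is the 250 bases before the gene start, 5′ to 3′ on the strand of the gene (RefSeq, GRCh38.p14), and capitals mark a match to 1 of 8 short motifs.
JCAD, chr10:30115495-30115744, minus strand, region in WT only: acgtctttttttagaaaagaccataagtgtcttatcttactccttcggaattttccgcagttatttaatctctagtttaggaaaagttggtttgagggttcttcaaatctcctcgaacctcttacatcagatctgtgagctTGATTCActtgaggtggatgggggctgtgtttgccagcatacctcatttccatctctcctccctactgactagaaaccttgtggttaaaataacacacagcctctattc
LILRA2, chr19:54573540-54573789, plus strand, region in WT only: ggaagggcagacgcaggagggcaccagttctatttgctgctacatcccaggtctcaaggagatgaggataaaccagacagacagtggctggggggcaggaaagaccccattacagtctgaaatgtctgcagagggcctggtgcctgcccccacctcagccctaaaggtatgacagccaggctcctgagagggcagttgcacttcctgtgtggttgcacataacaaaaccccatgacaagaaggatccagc
ARHGAP15, chr2:143129169-143129418, plus strand, region in WT only: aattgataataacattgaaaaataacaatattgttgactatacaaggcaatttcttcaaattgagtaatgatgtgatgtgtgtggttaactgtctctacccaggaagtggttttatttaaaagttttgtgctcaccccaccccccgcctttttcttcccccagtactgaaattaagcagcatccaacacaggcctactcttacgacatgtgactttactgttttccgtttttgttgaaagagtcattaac
KATNAL1, chr13:30307552-30307801, minus strand, region in KO only: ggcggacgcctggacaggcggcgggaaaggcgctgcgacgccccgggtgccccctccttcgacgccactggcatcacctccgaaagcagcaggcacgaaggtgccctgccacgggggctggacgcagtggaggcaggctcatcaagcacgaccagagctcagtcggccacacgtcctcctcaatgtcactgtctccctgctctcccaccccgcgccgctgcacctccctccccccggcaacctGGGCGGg
GPR55, chr2:230925243-230925492, minus strand, region in KO only: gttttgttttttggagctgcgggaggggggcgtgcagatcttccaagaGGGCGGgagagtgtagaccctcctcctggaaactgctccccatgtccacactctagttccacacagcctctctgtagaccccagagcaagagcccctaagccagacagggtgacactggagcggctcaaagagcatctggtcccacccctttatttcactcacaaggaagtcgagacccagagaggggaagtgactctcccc
PTPN14, chr1:214551603-214551852, minus strand, region in KO only: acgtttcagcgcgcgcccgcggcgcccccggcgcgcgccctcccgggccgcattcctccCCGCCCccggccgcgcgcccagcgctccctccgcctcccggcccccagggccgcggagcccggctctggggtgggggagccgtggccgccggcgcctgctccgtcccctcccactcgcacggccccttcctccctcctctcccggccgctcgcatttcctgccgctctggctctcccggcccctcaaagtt

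The best ranked WT-only windows were as follows. The window of JCAD, an endothelial junction gene, ranked 16850 in WT and held a match to the AP-1 motif (TGANTCA) 109 bases upstream of the start. LILRA2, a leukocyte receptor, ranked 17621, and ARHGAP15, a GTPase-activating protein for Rac, ranked 19245. Neither printed stretch held any of the 8 motifs. Further down came TMEM156 (21801), the adjoining SP110 and SP140, nuclear body proteins of leukocytes whose windows shared a region (22998), PTPRC, which encodes CD45 (24386), SMTN, a smooth muscle protein (25142), IL2RG, the common gamma chain of interleukin receptors (25154), CFAP69 (25595), MCTP2 (27918) and OLFML3 (29541). Of the 12 best ranked WT-only windows 10 overlapped H3K4me1 in WT, all but those of SMTN and OLFML3, and 6 overlapped an HA region of the tagged line. KDM6A antibody regions of WT without KO lay on 2 of the 12, and 5 of the 12 held a region in JmjD-dead cells. Over the PTPRC gene and 10 kb either side 13144 bp were covered in WT and 11896 bp in KO, so the total over the gene differed less than the start.

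KO-only windows held more CpG dinucleotides than WT-only windows, with medians of 25 and 18. The median was 27 in windows marked in both lists and 22 in all windows. Regions of KO-only windows stood at a median of 39.8% down the list, against 44.8% for WT-only windows. KATNAL1, a katanin subunit, ranked 12562 of 76242 in KO, with 26 CpG in its 300-base window and a match to the GC box (GGGCGG) 7 bases upstream of the start. GPR55, a lipid-sensing receptor, ranked 14484 and PTPN14, a tyrosine phosphatase, 17252. Their windows held 5 and 42 CpG, against 5, 3 and 4 in JCAD, LILRA2 and ARHGAP15. The next in order were GPR132 (17503), HDGFL1 (19703), ZNF892 (20158), GAS6, the ligand of the TAM receptor kinases (21058), FERMT2, which encodes kindlin-2 (22512), FHOD3 (22628), SH3PXD2B (23052), NXN (23438) and COL27A1 (24115). Of the 12 best ranked KO-only windows 10 overlapped H3K4me1 in WT, all but those of GPR55 and HDGFL1, and 0 an HA region of the tagged line. KDM6A antibody regions of WT without KO lay on 0 of the 12, and 6 of the 12 held a region in JmjD-dead cells. No share over all windows is set beside these counts, so they describe the 12 windows only. Median GC content was 66.3% in KO-only windows, 62.3% in WT-only windows, 66.0% in windows marked in both and 56.3% in windows marked in neither.

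ETS and cyclic AMP motifs were more frequent in windows marked in both lists than in those marked in 1. Matches were counted on both strands, and motifs may overlap. An ETS motif (CCGGAAGT) was present in 10.7% of windows marked in both, in 4.19% of WT-only windows, in 3.34% of KO-only windows and in 6.19% of all 15811. The cyclic AMP response element (TGACGTCA) was found in 3.74% of windows marked in both and 2.59% of all, and in 2 WT-only and 4 KO-only windows, and the GC box in 74.2% of windows marked in both, 55.7% of WT-only, 67.9% of KO-only and 58.5% of all windows. In the same order the shares were 3.49%, 4.19%, 6.17% and 5.76% for the AP-1 motif, and for the interferon-responsive motif (GAAA, any 2 bases, GAAA) 2.62%, 4.79%, 2.06% and 3.18%. The WT-only share of the last rests on 8 windows. A match describes letters and not a bound factor.

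Over all ranks, distal regions were missing from the other list more often than regions near genes, but in KO the order turned among weaker regions of like rank. Over all classes 20820 of 69127 WT regions (30.1%) had no KO partner and 26852 of 76242 KO regions (35.2%) had no WT partner. Without a partner means sharing no base with any region of the other list, and distal means more than 10 kb from both ends of every protein-coding gene. Of 44902 distal WT regions 16700 (37.2%, 36.7 to 37.6) had no KO partner, and of 24225 WT regions near a gene end 4120 (17.0%, 16.5 to 17.5) had none. In the KO list 18462 of 47653 distal regions (38.7%, 38.3 to 39.2) and 8390 of 28589 near gene ends (29.3%, 28.8 to 29.9) had no WT partner. The excess of KO-only over WT-only regions therefore lay mostly near genes. It was widest within 2.5 kb of a gene end, where 9.47% of WT and 20.8% of KO regions lacked a partner, and beyond 250 kb the shares were 41.3% and 39.5%.

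Which distal class was larger depended on the length of the list. With both lists cut to equal length the distal shares were 39.2% for WT and 34.6% for KO, and among regions whose −log10 q reached 5 they were 33.2% and 23.5%. Near gene ends the KO share was the higher in the main setting and in all 9 alternatives, with 11.7% and 12.7% as the closest pair.

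Partnerless regions were short and weak. Their median length was 250 bp in distal WT and 239 bp in distal KO, against 606 and 574 bp for distal regions with a partner. They made up 15.0% and 16.2% of distal covered length. In all, 77.7% of the 71.0 Mb covered in WT was also covered in KO, and 74.9% of the 73.6 Mb covered in KO was also covered in WT. In the best decile of the WT list 0 of 1948 distal regions lacked a partner, which allows a share of up to 0.189%. In the weakest decile 71.1% did, and in KO the shares were 0.288% and 74.0%. Near gene ends the weakest decile lacked a partner in 59.3% of WT and 81.9% of KO regions. At like rank the KO shares were thus higher near gene ends than at distal sites in each of deciles 5 to 10, for example 30.5% against 26.2% in decile 5 and 60.4% against 52.7% in decile 7. In WT the distal share was the higher in deciles 2 to 10.

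**Figure D1:**
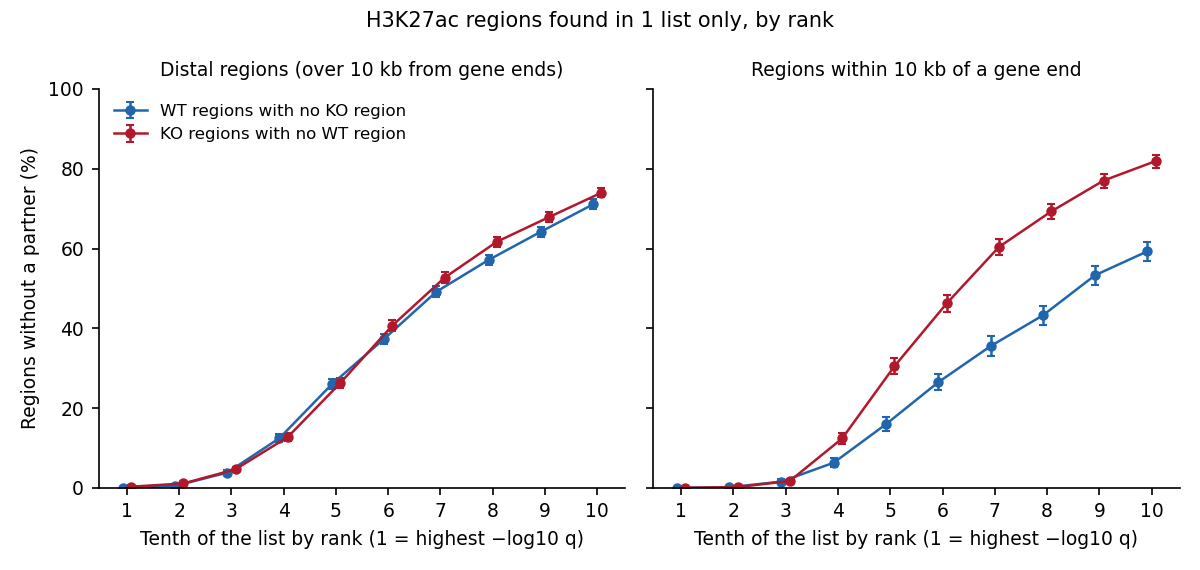
Share of H3K27ac regions (%, y axis) without a partner in the other list, by decile of the list ordered by −log10 q (x axis), for distal regions (left) and regions within 10 kb of a gene end (right). Points are shares of the 1 library per genotype and bars are 95% Clopper-Pearson intervals for counting error. The WT and KO curves lie close together at distal regions and separate near gene ends, where the KO curve rises above the distal one from decile 5 and the weakest decile reaches 59.3% in WT and 81.9% in KO.

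Among the strongest regions distal sites took a smaller place in KO. Of the 10000 best ranked regions 30.3% (29.4 to 31.3) were distal in WT and 25.3% (24.4 to 26.1) in KO. The shares in the 20000 best were 41.6% (40.9 to 42.3) and 38.8% (38.1 to 39.5), and in the 40000 best 57.0% (56.5 to 57.4) and 54.7% (54.3 to 55.2). JmjD-dead cells had 28.9%, 41.1% and 56.7%. The difference of −5.06 percentage points among the 10000 best lay between −2.76 and −5.46 in the 6 alternative settings that can change it. Where exactly 1 WT region met 1 KO region, the median KO over WT length ratio was 1.00 for 19667 distal pairs (quartiles 0.739 and 1.32) and 1.06 for 14561 pairs near gene ends (0.929 and 1.25).

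The strongest distal sites of 1 list were next described one by one, leaving out regions that overlap an input region. Foremost in WT was a region of 2303 bp inside RCAN2, a regulator of calcineurin, at chr6:46336905-46339207. It ranked 7105 in WT, had no region in KO and ranked 7673 in JmjD-dead cells. The others lay inside BEND6 (chr6:56977524-56978707, rank 10013), inside MYO1D, an unconventional myosin (chr17:32827373-32829196, rank 10231), inside MON2 (chr12:62542496-62544489, rank 11398) and 12.2 kb from PNN (chr14:39195418-39197541, rank 11563). All 5 overlapped H3K4me1 in WT and all 5 held an H3K27ac region in JmjD-dead cells, at ranks of 7673 to 16019. HA regions of the tagged line lay on 4 of the 5, all but that in MON2. In the second quintile of the WT list 89.7% of WT-only distal sites overlapped H3K4me1 in WT and 50% an HA region. No share with a region in JmjD-dead cells is set beside these counts, so they describe the 5 sites only.

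None of the 5 strongest KO-only sites overlapped H3K4me1 in WT or in KO. Of all 40 KO-only distal sites in the best quintile of the KO list, 18 (45%) overlapped it in WT and 7 (17.5%) in KO. Among KO sites with a partner in that quintile the shares were 99.2% and 39.6%. The H3K4me1 list of KO thus missed most strong shared sites, and absence from it is not read as absence of the mark. Of the 5 strongest, a pair lay between genes on the short arm of chromosome 5, beside IRX2 (chr5:2559359-2561717, 2359 bp, rank 6173) and IRX1 (chr5:3392138-3396109, 3972 bp, rank 6833), Iroquois homeobox transcription factors. Another of 3649 bp lay 77.0 kb from CDC42BPA, a kinase that binds CDC42 (chr1:227395485-227399133, rank 9490). None of these 3 had a region in WT or in JmjD-dead cells. The remaining 2 ranked highest but were narrow, 267 bp in ARHGEF18 (chr19:7362010-7362276, rank 2278) and 149 bp near LRRCC1 (rank 5870), and both had a region in JmjD-dead cells (ranks 1254 and 2753).

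Presence and absence hid large changes of strength at shared sites. To compare ranks, overlapping WT and KO regions were joined into loci and the best rank of each list was expressed as a percentile of its list (0 the strongest, 100 the weakest). Of 24928 distal loci found in both lists 2571 (10.3%) moved down by at least 20 percentile points in KO and 3097 (12.4%) moved up, with a median absolute move of 8.67 points. Of 18109 loci near gene ends 4.05% moved down and 8.56% up, with a median absolute move of 4.11 points. The order of the distal counts turned with equal list lengths (3119 down and 2308 up) and above a −log10 q of 5 (2385 and 1100). Of the distal loci in the best decile of the WT list 1370 were also in the best decile of KO, 471 in the second decile and 61 in the third.

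**Figure D2:**
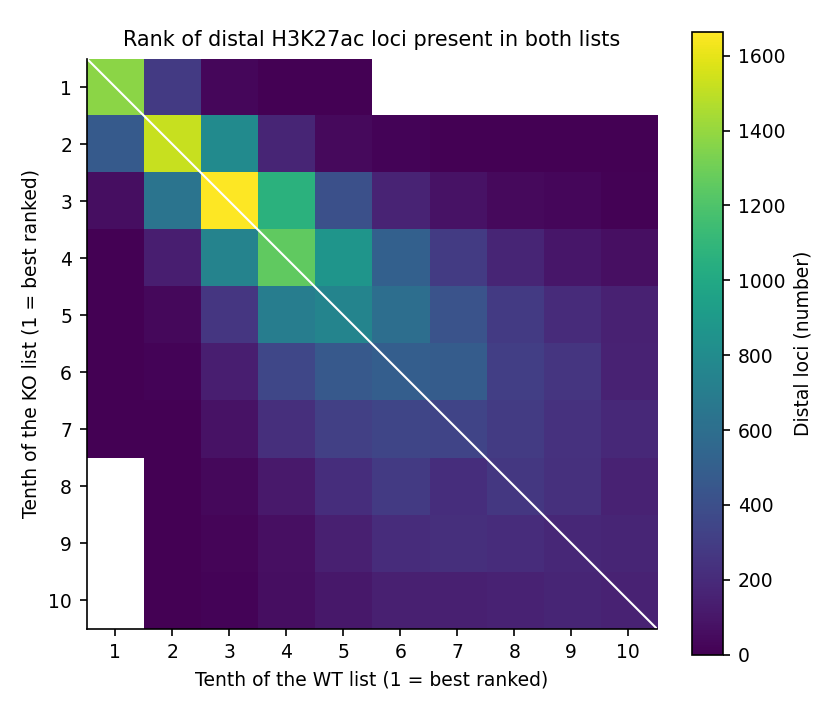
Number of distal H3K27ac loci present in both lists (colour), by decile of the WT list (x axis) and decile of the KO list (y axis), decile 1 being the best ranked. White cells hold no locus and the white line marks equal deciles. Loci of the best decile stay near the line, with 1370 in the best decile of both lists, and the spread widens among weaker loci.

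The steepest fall was 62.7 kb from MTHFS, an enzyme of folate metabolism. A WT region of 3177 bp at chr15:79777660-79780836 ranked 9672 and was replaced in KO by one of 172 bp that ranked 75532. JmjD-dead cells were intermediate at rank 22571. Near ACTBL2 the region shrank from 882 to 164 bp (rank 13010 to 74216), in CDC16, a subunit of the anaphase-promoting complex, from 3536 to 191 bp (12295 to 70822), near SNX9, a sorting nexin, from 1198 to 198 bp (10683 to 68244), and near BLID from 2018 to 423 bp (9097 to 61563). In RIPOR2 a region of 7156 bp at rank 9616 left 367 bp in KO, the best region there being 198 bp at rank 59172, while JmjD-dead cells ranked it 7098. The 8 loci that fell most all overlapped H3K4me1 in WT, and 7 of them had a region in JmjD-dead cells, all but that near BLID. Among partnered WT sites 99.6% in the best quintile and 96.9% in the second overlapped H3K4me1, so such overlap was usual at this strength.

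Rises were led by a site inside NTM, a neural adhesion gene, where 510 bp were covered in WT, the best region ranking 65566, and 680 bp in KO, at rank 14953. Larger gains in length were seen 67.7 kb from TAMM41, from 381 to 3216 bp (rank 56972 to 7716), 16.4 kb from GAS6, from 150 to 3047 bp (60414 to 13031), and 54.7 kb from ZNF438, from 222 to 3010 bp (59320 to 15245). Sites near RAMP3 (rank 64385 to 14565), KCNH8 (57023 to 12915) and ZNF521, a zinc finger factor (54788 to 12156), and in CELSR1 (55536 to 14421) rose in the same way. Of the 8 loci that rose most 5 overlapped H3K4me1 in WT and 5 had a region in JmjD-dead cells. Among partnered sites 99.2% in the best KO quintile and 49.9% in the weakest WT quintile overlapped H3K4me1 in WT. The rises joined weak WT and strong KO ranks, so their count cannot be set against that of the falls. No share over all loci is set beside the counts in JmjD-dead cells, here or for the falls. The site near GAS6 and the KO-only region at the GAS6 start lay at the same gene. Compared region by region and not by locus, the largest rises instead fell on small WT fragments beside IGLL5, SMTN, KIFC3, LOC124907854 and PDIA6. In each of these 5 cases 3 WT regions met a single KO region, and the best of the 3 WT regions ranked between 24 and 1119.

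Distal regions also changed in blocks. Distal regions of both lists were joined across gaps of up to 12500 bp into 19853 domains, of which 12838 held regions in both lists, 2920 in WT only and 4095 in KO only. Among 1813 domains with at least 5000 bp in either list 131 (7.23%) were at least 2-fold lower in KO and 75 (4.14%) at least 2-fold higher, with a median KO over WT ratio of 0.978. The largest falls and rises over all domains lay in part in 1 Mb bins with over 10 times the median number of regions, beside TRIB2 and LPIN1 on chromosome 2 and near ALG10B and POTEA. Outside such bins a domain 602.0 kb from ANKRD30B went from 34212 to 14510 bp, one in UNC5D, a netrin receptor, from 28378 to 10964 bp, one in RAD51B, a DNA repair gene, from 30743 to 14298 bp, and one in EXOC4, an exocyst subunit, from 31747 to 16099 bp. In RIPOR2 the change was from 15329 to 1686 bp and in SLC12A8, an ion transporter, from 17607 to 4276 bp. JmjD-dead cells differed between these domains, with 26509 bp near ANKRD30B, 11116 bp in UNC5D, 17211 bp in RAD51B, 29010 bp in EXOC4, 19257 bp in RIPOR2 and 6251 bp in SLC12A8. In UNC5D, RAD51B and SLC12A8 they stood nearer to KO, and in the other 3 nearer to WT. The domain near ANKRD30B held 16 input regions in KO and 1 in WT, and those in UNC5D, RAD51B and EXOC4 held 0 or 1 in either line.

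The largest differences upward were in IQSEC1 (25069 to 59193 bp), beside LOC124907854 (79429 to 104566 bp), in CDK6, a cell cycle kinase (42614 to 62937 bp), in MBNL1, a splicing factor (43005 to 60619 bp), and in CTIF (41864 to 58721 bp). In these 5 domains the covered length in JmjD-dead cells was 27752, 78183, 39789, 40283 and 26203 bp, in each case nearer to WT than to KO. The domain in IQSEC1 held 2 input regions in WT and 3 in KO, and that beside LOC124907854 held 0 and 8.

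Counted in bins of 1 Mb, the median KO over WT covered length was 1.03 over 2346 bins with at least 5000 bp in either list (dense bins left out), 56 being at least 2-fold lower and 48 at least 2-fold higher in KO. The bin that holds IRX2 (chromosome 5, 2 to 3 Mb) had 1 region of 1361 bp in WT, 1 region of 1279 bp in JmjD-dead cells, and 49 regions over 39105 bp in KO. The next bin, with IRX1, went from 7 regions and 3233 bp to 50 regions and 27773 bp. H3K4me1 regions in these bins numbered 2 and 9 in WT and 33 and 25 in KO, and input regions 3 and 2 in WT and 3 and 6 in KO. The bin with FAT3 (chromosome 11, 92 to 93 Mb) rose from 639 to 16774 bp, that with GALNT13 and RPRM (chromosome 2, 153 to 154 Mb) from 1888 to 26326 bp, and that with NPAP1, SNRPN and SNURF (chromosome 15, 24 to 25 Mb) from 2649 to 22105 bp. H3K4me1 regions in these 3 bins numbered 18, 9 and 18 in WT and 0, 0 and 2 in KO. The H3K4me1 list of KO missed most strong partnered sites, so its low counts are not read as absence of the mark.

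Of the 10 bins with the steepest losses 8 are given here. The bin with EPHA4 (chromosome 2, 221 to 222 Mb) fell from 6193 to 253 bp, that with GRXCR1 (chromosome 4, 43 to 44 Mb) from 5976 to 307 bp, that with PTCHD4 (chromosome 6, 48 to 49 Mb) from 5559 to 322 bp, and that with RCAN2 (chromosome 6, 46 to 47 Mb) from 9686 to 866 bp. In JmjD-dead cells these 4 bins held 3605, 3919, 5673 and 14046 bp. The bin with ARAP2 and DTHD1 (chromosome 4, 36 to 37 Mb) fell from 5479 to 465 bp, with 2540 bp in JmjD-dead cells, and a bin with no gene of the table (chromosome 12, 60 to 61 Mb) from 6187 to 1104 bp, with 2792 bp. The bin with DOCK1 (chromosome 10, 127 to 128 Mb) fell from 8572 to 1770 bp and that with MAP2K6 (chromosome 17, 69 to 70 Mb) from 6134 to 1294 bp, with 7363 and 5055 bp in JmjD-dead cells. JmjD-dead values thus ranged from below WT to above it. Regions were called without a control, so the copy number of a block can enter its H3K27ac. The part of copy number in these blocks was not tested, and the input lists are shallow (0.384 M fragments in WT and 0.725 M in KO).

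WT-only and KO-only distal sites were compared for the other marks. Because overlap with a mark can differ with rank, sites were compared within quintiles of their own list. The best quintile was left out because it held few sites without a partner. These were 40 KO-only sites, and WT-only sites numbering 0 in the first decile and 13 in the second. In the second quintile 89.7% (87.3 to 91.7) of 764 WT-only sites overlapped H3K4me1 in WT, against 96.9% (96.5 to 97.3) of 8226 WT sites with a partner. Of 897 KO-only sites in the same quintile 47.0% (43.7 to 50.4) did, against 94.2% (93.7 to 94.7) of 9137 KO sites with a partner. H3K4me1 of KO cells overlapped 13.5% (11.3 to 15.9) of the KO-only sites and 26.7% (25.8 to 27.7) of their partnered counterparts. Among WT sites it overlapped 11.1% (8.98 to 13.6) of those without a partner and 25.2% (24.2 to 26.1) of those with one. With the H3K4me1 list of KO, WT-only and KO-only sites thus had overlapping intervals in the second quintile, as they did in the third. In the fourth and last quintiles and over all ranks the intervals separated, with the WT-only share the higher. The shares were 20.3% of WT-only and 18.1% of KO-only sites in the fourth quintile, and 20.1% and 18.4% over all ranks. The H3K4me1 list of KO covers 37.9 Mb, against 71.8 Mb in WT.

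In the second quintile the division seen with H3K4me1 of WT, and not with that of KO, recurred for KDM6A regions of WT without KO. Regions of the KDM6A antibody in WT that have none in KO lay on 33.5% (30.2 to 37.0) of the WT-only sites and 37.3% (36.3 to 38.4) of the partnered WT sites in the second quintile. Among KO sites they lay on 8.92% (7.14 to 10.98) of those without a partner and 34.6% (33.6 to 35.5) of those with one. HA regions of the tagged line that are absent from the untagged HA list lay on 50% (46.4 to 53.6) and 52.9% (51.8 to 54.0) of the WT sites, and on 14.4% (12.1 to 16.9) and 48.3% (47.2 to 49.3) of the KO sites. In this quintile the intervals of WT-only and partnered WT sites overlapped for both antibodies, and those of KO-only and partnered KO sites did not. Elsewhere the WT intervals separated for KDM6A in the third quintile (18.2 to 20.996 against 21.5 to 23.5) and for HA in the fourth (10.4% against 13.5%) and the last (5.04 to 6.12 against 7.48 to 9.37). Over all ranks 16.8% of WT-only and 29.9% of partnered WT sites had a KDM6A region, and 12.7% and 36.8% an HA region, against 10.8% and 29.2%, and 5.86% and 36.8%, among KO sites. Partnered regions were longer, with medians of 955 against 671 bp in WT and 864 against 593 bp in KO. In fixed windows of 500 bp the KDM6A shares were 23.2% and 25.7% for WT sites and 8.36% and 24.8% for KO sites. Whole regions of the KDM6A list of KO showed no such division in this quintile. They lay on 7.20% of WT-only and 7.80% of KO-only sites, and on 14.8% and 15.6% of the partnered ones. KO-only sites have no H3K27ac region in WT, and the first KDM6A list keeps only WT regions absent from KO. The part of this selection in the shares was not tested. H3K27me3 of KO cells lay on 2.88% (1.81 to 4.33) of the WT-only sites, against 15.9% of the partnered ones, and on 6.69% of the KO-only sites, against 16.6%, so partnerless sites of both lists had the lower share.

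**Figure D3:**
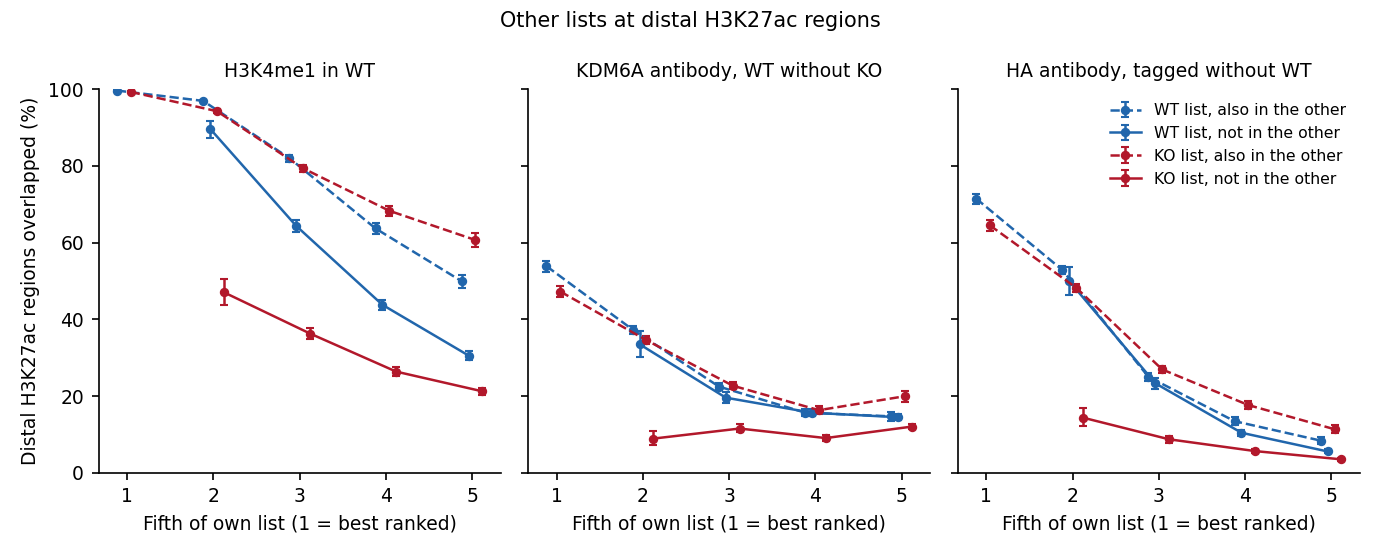
Share of distal H3K27ac regions (%, y axis) that overlap a region of H3K4me1 in WT (left), of the KDM6A antibody in WT without KO (middle) and of the HA antibody in the tagged line without WT (right), by quintile of the region's own list (x axis, 1 the best ranked). Solid lines are regions without a partner in the other list, dashed lines regions with one, blue WT and red KO, with 95% Clopper-Pearson intervals for counting error and classes under 50 regions left out. In the second quintile the solid red line of KO-only regions lies below the other 3 in each panel, at 47.0%, 8.92% and 14.4%.

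At genes, covered length is the number of bases covered by H3K27ac regions in the gene body and 10 kb either side. It was compared at 14594 genes with at least 500 bp in WT or KO, with 250 bp added to both values before a ratio was taken. Of these genes 382 (2.62%) were at least 2-fold lower and 758 (5.19%) at least 2-fold higher in KO, and the median ratio was 1.10. Covered length moves with how much was called, and the KO list covered 1.04 times the length of the WT list.

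The deepest losses included receptor and channel genes, and 9 of them are given here. At OLFML3 the 6821 bp of WT were lost entirely in KO, and JmjD-dead cells kept 1869 bp. The nearby SYT6, a synaptotagmin, went from 7522 to 176 bp (2382 bp in JmjD-dead cells). RCAN2, whose internal site led the distal losses, was covered over 6380 bp in WT and 6236 bp in JmjD-dead cells, and nowhere in KO. EPHA4, an ephrin receptor, went from 4049 to 253 bp, while the JmjD-dead line had 3605 bp. The others in rank were H2BN1, a histone gene (4982 bp in WT and 0 in KO), GPR82, an orphan receptor (3066 and 0 bp), RYR2, a calcium release channel (3902 and 165 bp), CHRM2, a muscarinic receptor (3889 and 196 bp), and C4BPB, a chain of the complement inhibitor C4b-binding protein (4303 and 263 bp). In JmjD-dead cells 8 of the 9 genes held at least 1307 bp, and GPR82 held 153 bp. At RYR2 the best ranked region was nevertheless kept, at rank 2734 in WT and 614 in KO. That region was narrow (chr1:237117604-237117765 in WT and chr1:237117601-237117765 in KO), and in KO it was all of the 165 bp left.

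Gains were led by FAT3, a giant protocadherin, with 15114 bp in KO and no region in WT or JmjD-dead cells. BCL11A, a zinc finger factor of early B cells, had 4925 bp in KO and 0 in both other lines. IRX2 had 3580 bp in KO and 0 in the others, and SORCS1, a sorting receptor (4139 bp), C11orf21 (3736 bp) and RYR3, a calcium release channel (3313 bp), showed the same pattern. The remaining 4 were also at 0 in WT but not in JmjD-dead cells: the homeobox gene CUX2 (4233 bp, against 499 bp in JmjD-dead cells), NRG2, a neuregulin (4099 and 8077 bp), HDGFL1 (3308 and 1619 bp) and PTPRH, a receptor phosphatase (3295 and 1356 bp). With a window of 50 kb the log2 ratio at PTPRH was 0.94, under the 2-fold call. So 6 of the 10 strongest gains were at 0 in JmjD-dead cells. H3K4me1 at these genes followed no single pattern. At FAT3 and SORCS1 it covered 3164 and 2975 bp in WT and 0 in KO, at NRG2 1980 and 1835 bp, at BCL11A 0 and 788 bp, and at IRX2 0 in both. Because the H3K4me1 list of KO missed most strong partnered sites, a value of 0 in KO is not read as absence.

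**Figure D4:**
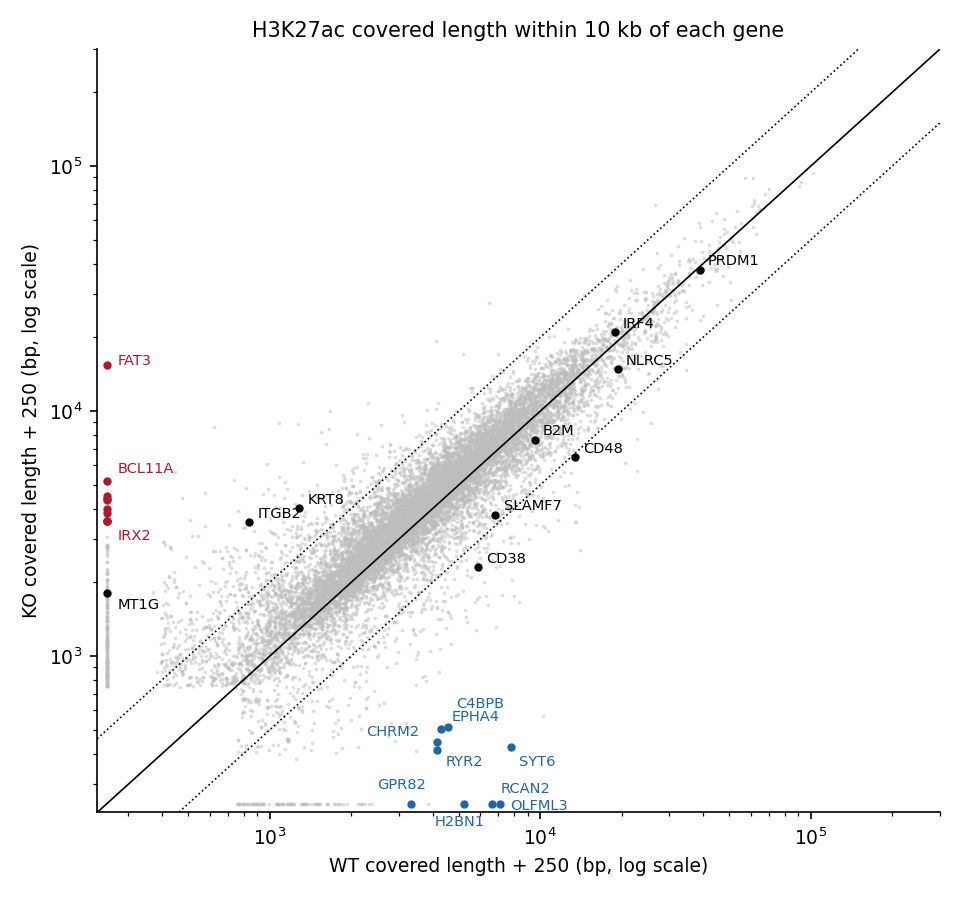
H3K27ac covered length of each gene (body and 10 kb either side, bp with 250 added, log axes) in WT (x axis) and KO (y axis), with 1 grey point per gene for 14594 genes. The solid line marks equality and dotted lines a 2-fold difference; blue points are the 9 losses named in the text, red points the 10 largest gains (3 of them labelled) and black points list members named in the text. The red points stand at 0 bp in WT and FAT3 reaches 15114 bp in KO.

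Genes were also compared by the rank percentile of their best region, at 14544 genes with a region in both lists. The best region moved down by at least 20 points at 182 genes (1.25%) and up at 519 (3.57%), with a median move of −1.33 points, that is, upward in KO. On chromosome 17 SPACA3, a sperm acrosome gene, fell from rank 936 with 13186 bp to rank 26675 with 3263 bp. Without regions on input its move was 10.7 in place of 33.6 points, which ends the call. Its neighbours TMEM98 and H2BN1 had 3606 and 4982 bp in WT and no region in KO, so no rank move, and MYO1D from 11992 to 5383 bp. The adjoining ASIC2, a sodium channel, rose from rank 48709 with 327 bp to rank 13304 with 3144 bp, and that region lay inside the gene.

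Other falls were seen at RPTN, an epidermal matrix gene, from rank 4042 (6608 bp) to 48558 (1063 bp), and at C4BPA, beside C4BPB, from 12179 to 56527. ADGRG1, the adhesion receptor GPR56, fell from 10574 to 46817 and GDF15, a stress-induced cytokine, from 11950 to 47270. SH2D1B, the adaptor EAT-2 of SLAM family receptors, fell from 11475 (4446 bp) to 38279 (1174 bp), where JmjD-dead cells ranked 6704 with 6832 bp. CCL4, a chemokine, fell from 180 to 25450 and SAA2, an acute-phase protein, from 13674 to 45641, but close copies of both genes exist in the genome and make their regions uncertain. At GNAZ (152 to 32060) and C19orf33 (12530 to 63934) the best WT region only touched the window, with 287 of its 8310 bp and 124 of its 1075 bp. Joining regions at 1 kb ended the calls at GNAZ and CCL4 (0.541 and 7.96 points), and GNAZ moved by 5.47 points without regions on input and 5.69 with a window of 2.5 kb. With a window of 50 kb GNAZ, CCL4 and ADGRG1 moved by 0.356, 5.35 and 15.9 points, also under the call. The falls at GDF15, SH2D1B and C19orf33 and the rise at ASIC2 changed sign when the window was 50 kb.

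Among the rises ITGB2, the common beta chain of the leukocyte integrins, went from rank 34704 (591 bp) to 4812 (3269 bp), and stood at 59586 with 69 bp in JmjD-dead cells. The KO region at rank 4812 touched the ITGB2 window with 105 of its 3399 bp, and with a window of 50 kb the move was −5.75 in place of −43.9 percentile points. SHANK2, a synaptic scaffold gene, went from 53368 to 14063, LRRC75B from 40358 to 4468, ADM5 from 34605 to 387, and SLC16A8, a lactate transporter gene, from 40376 to 10200. CABCOCO1, LOC124908046, ILDR2 and SLCO2B1 followed, from ranks of 41131 to 47451 in WT to ranks of 10772 to 15248 in KO. JmjD-dead cells also ranked ADM5 high, at 507, and LRRC75B at 9689. The call at ADM5 ended when regions were joined at 1 kb (−0.0619 points). A window of 50 kb ended those at ADM5 (−0.0508), LRRC75B (−0.948), LOC124908046 (−0.781), ILDR2 (−2.56) and SLC16A8 (−1.01).

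Plasma cell genes kept their H3K27ac, while most of their best regions ranked lower. The best region ranked lower by percentile in KO at 15 of 20 genes, with a median move of 0.395 points, where over all genes 4009 of 14544 moved down. The median covered length ratio was 0.989, against 1.10 for all genes, and 1 member passed 2-fold. That was CD38, the ectoenzyme targeted in myeloma therapy, which fell from 5615 to 2064 bp, while JmjD-dead cells had 5936 bp. Its best region went from rank 3693 to 11577. SLAMF7, another surface target, went from 6569 to 3528 bp (rank 10464 to 23675), GPRC5D from 4878 to 3083 bp (5680 to 15269), and POU2AF1, a B cell coactivator, from 10850 to 7520 bp (3654 to 11440). FCRL5 moved down by over 20 points, from rank 37571 to 65653. DERL3 went from 3241 to 11330. The gene of BCMA, TNFRSF17, held 13973 and 13592 bp and moved from 576 to 1122, and MZB1 and CD27 ranked slightly higher in KO (222 to 198 and 250 to 221). Without regions on input the count of members lower in rank was 13 of 20, and in the other 6 settings it was 14 or 15.

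Ligands of natural killer cells, checkpoint ligands and adhesion molecules differed in both directions. Of 16 genes tested in the list of ligands, checkpoints and adhesion molecules 1 was 2-fold lower and 3 were 2-fold higher. Over all 14594 genes the shares were 2.62% and 5.19%. CD48, the ligand of the receptor CD244, fell from 13195 to 6224 bp and from rank 624 to 20664, with 11580 bp and rank 2777 in JmjD-dead cells. CD86, a costimulatory ligand, had 8198 bp in WT and 4020 bp in KO, CD58, the ligand of CD2, 18318 and 11892 bp, and ITGAL, the partner chain of ITGB2 in LFA-1, 15850 and 9311 bp. Higher were ITGB2, PDCD1LG2, which encodes PD-L2 (0 and 644 bp), and CD276, which encodes B7-H3 (2645 and 5556 bp). ITGB2 and ITGAL, the 2 chains of 1 integrin, thus differed in direction.

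No class I gene passed either threshold. Of 20 class I and antigen processing genes tested 0 passed 2-fold in either direction and 0 moved by 20 points, with a median ratio of 0.987. The class I heavy chain HLA-B had 1805 bp in WT and 1501 bp in KO, and its best region ranked 6308 in WT and 11819 in KO. TAP1, TAP2, PSMB8 and PSMB9, which share 1 best region, went from rank 319 to 1423, B2M from 608 to 886, and NLRC5, the class I transactivator, from 1608 (19058 bp) to 3652 (14562 bp). PSMB10, an immunoproteasome subunit, went from 3733 to 5293 bp and from rank 633 to 386. HLA genes have near-identical copies, so their values are uncertain. Class II genes were mostly empty, with 4 of 16 tested. CIITA, their transactivator, had 9740 bp in WT and 10513 bp in KO.

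Of 17 interferon-stimulated genes tested 1 was 2-fold lower and 3 were 2-fold higher, against 2.62% and 5.19% of all 14594 genes. The median ratio was 1.06, but 0.918 above a −log10 q of 5 and 1.28 with regions joined at 1 kb, so the list had no settled direction. The IFITM cluster, antiviral membrane proteins, were all lower in KO: IFITM1 from 5059 to 2570 bp (rank 7330 to 19286), IFITM2 from 5824 to 3636 bp (5154 to 13510) and IFITM3 from 6739 to 3721 bp (7330 to 17830), with 4267, 5076 and 5904 bp in JmjD-dead cells. These 3 adjoin and share regions, so they are not separate observations. OAS1 fell from 5606 to 2113 bp. The genes 2-fold higher were MX2 (0 to 1363 bp), IFIH1, the RNA sensor MDA5 (0 to 1032 bp), and GBP2 (718 to 1788 bp). Among interferon receptors, JAKs, STATs and IRFs 1 of 23 passed 2-fold, STAT5A, from 336 to 963 bp.

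Markers of other cell types were looked at next. Of 7 epithelial and stromal markers tested all 7 had a ratio above 1, as did 9948 of all 14594 genes, and 2 passed 2-fold, the adjoining keratins KRT8 (1032 to 3772 bp) and KRT18 (0 to 881 bp). Their summed covered length was 10633 bp in WT and 18157 bp in KO, with a region at 8 of 14 markers in each list. Of 8 T and NK cell markers CD8B (478 to 2187 bp) and CD5 (895 to 2331 bp) were 2-fold higher, where 5.19% of all 14594 genes were. The sum over the T and NK cell markers was 42835 and 41755 bp. Of 8 myeloid and erythroid markers 0 passed, and the sum was 14492 and 17181 bp. In the B cell list BCL11A and SPI1, the factor PU.1 (0 to 2172 bp), were 2-fold higher, and EBF1, an early B cell factor, went from 859 to 0 bp. The part of cell mixture in these values was not tested. Region lists from bulk cells do not tell a weaker mark in every cell from its loss in some.

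In the HOX list, homeobox factors of body patterning, 22 of 27 tested had a ratio above 1, with a median of 1.24, where 9948 of all 14594 genes did. Of 30 ranked 24 moved up, with a median move of −6.33 points, where 10535 of all 14544 genes moved up. HOXD13 was 2-fold higher (2309 to 4942 bp) and HOXD12 and HOXD11, which share its best region, had 1909 and 836 bp in WT and 3680 and 1622 bp in KO. HOXB13 was 2-fold lower (917 to 201 bp). Members of a cluster share regions, so the counts are not of separate sites. Among 21 developmental regulators tested 3 were 2-fold higher, EVX1 (0 to 842 bp), PAX2 (152 to 1364 bp) and WT1 (2721 to 5770 bp). Over all 14594 genes 5.19% were 2-fold higher. In the metallothionein cluster MT1B, MT1F and MT1G, all at 0 in WT, shared a KO region of rank 12824 and had 1326, 1326 and 1564 bp. The sequences of these genes are nearly alike, which makes their regions uncertain.

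In 7 further lists no member passed 2-fold. Housekeeping genes had a median ratio of 1.14 with 0 of 20 past 2-fold, acetyltransferases, deacetylases and bromodomain proteins 1.15 with 0 of 20, unfolded protein response genes 1.10 with 0 of 20, and genes of KDM6A, COMPASS and Polycomb 1.07 with 0 of 19. In the last list JARID2, a Polycomb cofactor, had 28069 bp in WT and 18113 bp in KO. NF-kB genes had a median ratio of 1.11 with 0 of 19 past 2-fold and BCL2 family genes 1.23 with 0 of 13. Myeloma oncogenes and drivers had 0.973 (1.09 with a window of 50 kb) with 0 of 21, and their widest differences were at CRBN, the cereblon target of immunomodulatory drugs (562 and 1250 bp), and TENT5C, a myeloma suppressor gene (16136 and 10200 bp).

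**Figure D5:**
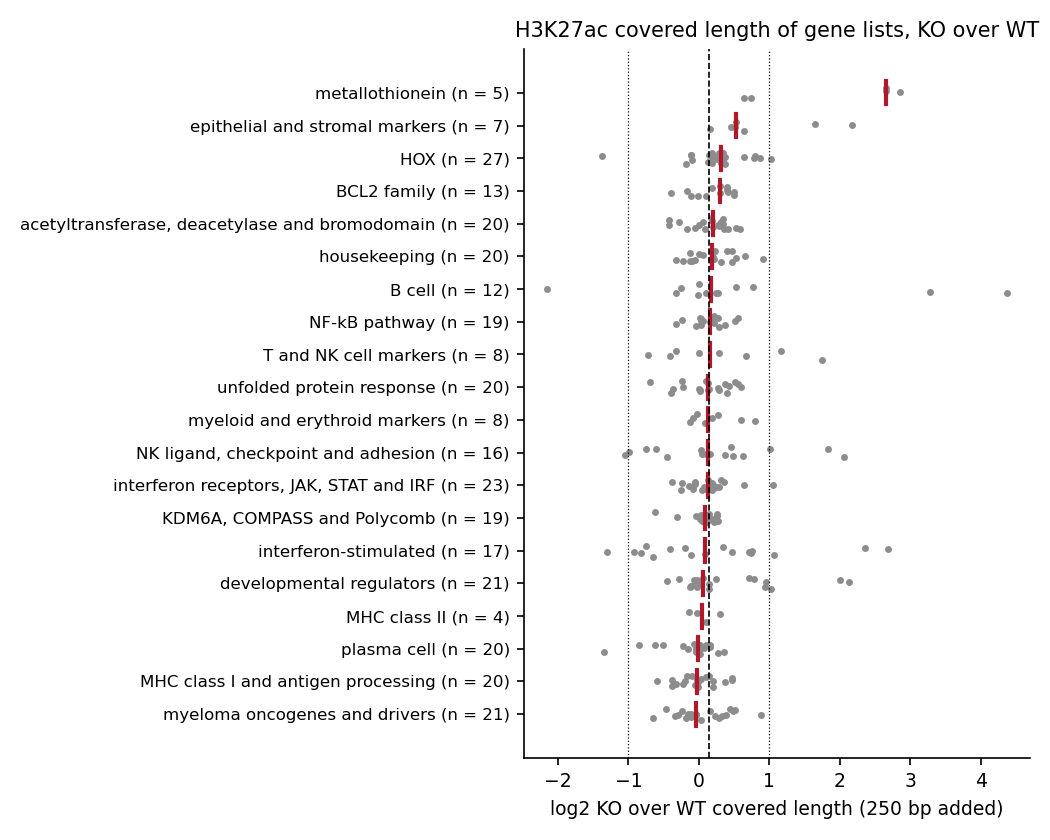
log2 KO over WT covered length (x axis, 250 bp added) of the tested members of 20 gene lists (y axis, n = members tested), 1 grey point per gene, with a red bar at the list median. The dashed line is the median of all 14594 genes (ratio 1.10) and dotted lines mark a 2-fold difference. Medians run from 0.973 for myeloma oncogenes and drivers to 1.44 for epithelial and stromal markers, apart from metallothioneins, where 3 of 5 members were at 0 in WT.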

How the data were processed

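The deposited region lists of 14 ARP1 chromatin libraries (H3K27ac, H3K4me1, H3K27me3, KDM6A, HA and input) were used, 1 library per genotype and antibody. Per the file headers, the authors called H3K27ac regions with MACS 2.2.7.1 on paired-end fragments at a q-value of 0.05, with no control and no local background, from a merged alignment whose runs are not named. Each −log10 q-value and each fold enrichment (a ratio) deposited by the authors is therefore relative to the mean of its own library. H3K4me1, HA and KDM6A lists were made with MACS 2.1.1.20160309, per the file headers. Trimmomatic, FastQC, MultiQC, Bowtie2, MACS2 2.1.2 and GRCh38 are listed in the submitters' processing notes. The H3K4me1 library labelled KO has E4 in its title, and the HA-tagged line is labelled KDM6A knock out.

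Overlaps, ranks, covered lengths and exact binomial intervals were computed with Python 3.11.15, numpy 2.4.6, pandas 2.3.3 and scipy 1.17.1, and figures with matplotlib 3.10.9. The scripts recovered the known answers in 5 of 5 steps on simulated regions. Genes are 19970 protein-coding RefSeq genes (GRCh38.p14). Of 429 list entries 428 matched one. Promoters of 15811 genes had a sequence, none on chromosome 8. Ratios and rank moves were called at 2-fold and 20 percentile points.

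Named items were the 5 best ranked distal regions of 1 list each way (none on input), the 8 loci and 5 domains each way that changed most, the 10 genes each way by covered length (at least 3000 bp) and by rank (better rank in the top 20%), and up to 4 members per gene list. The loci, the bins of 1 Mb and further list members were added after their values were seen. Some items that the rule names are not reported here. The comparison, its members and its gene lists were chosen with earlier results of these data known.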

Additional observations from a re-analysis of the deposited data

How the results depend on the processing

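Values are ordered as all, distal and gene-end WT regions without a KO partner, then the same for KO. Above a −log10 q of 5 they were 24.4%, 33.2%, 11.7%, 18.7%, 23.5% and 12.7%, with 286 genes down in rank and 1100 distal loci up. At equal list lengths they were 31.8%, 39.2%, 18.0%, 30.9%, 34.6% and 25.0%. Counting only overlaps of 50% gave 39.0%, 47.5%, 23.2%, 43.2%, 47.6% and 35.8%. With regions joined at 1 kb they were 23.0%, 30.4%, 10.9%, 29.5%, 34.9% and 20.9%, with 1328 loci down, a distal difference of −4.05 points among the 10000 best and a rank move of −12.0 at C19orf33. Without regions on input the first 5 were 31.2%, 38.8%, 17.6%, 36.4% and 40.4%. With distal set at 2.5 kb, distal and gene-end WT gave 36.1% and 9.47%, and KO 39.6% and 20.8%. At 50 kb distal WT gave 39.1%, gene-end WT 24.1% and gene-end KO 33.1%, with 1586 loci down, 1845 up and a difference of −2.76 points. A gene window of 50 kb gave rank moves of −5.49 at C19orf33, −0.474 at GDF15, −0.342 at SH2D1B and 16.1 at ASIC2. Added after seeing the data, leaving out dense bins gave 28.9% for all WT, 36.4% for distal WT and 34.5% for all KO, and distances to gene starts gave 35.9% for distal WT, 13.2% for gene-end WT and 26.8% for gene-end KO. Genes 2-fold lower and higher in covered length numbered 351 to 472 and 677 to 924. The cause of these shifts was not tested.

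No paired analysis was possible because each genotype had 1 library. Regions called without a control follow depth and copy number, the KO library was the smaller, and ties in −log10 q (470 distinct values in WT, 392 in KO) limit the order of weak regions.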
